A study of Mus musculus with 6 samples.

Results

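The immunoglobulin heavy-chain locus of the mouse was examined by ATAC-seq, which marks open chromatin by the cuts of a transposase, in B-cells from the bone marrow of PEtg mice. All ATAC-seq peaks overlapping chr12:113180000-116010000 (mm10) were taken, 271 of the 97124 peaks in the series, or 0.279%. The position of a peak alone decided its membership. The locus was divided into 7 fixed stretches, and a peak was counted in the stretch that held its centre. Below position 113430000 lay the constant regions and the flank that holds the 3′ enhancers (25 peaks), and from there to 113530000 the D segments, in what is called here the D stretch (5 peaks). Above it followed 5 variable stretches of 500 kb each, the last of them ending at the border of the window, here called variable 1 to variable 5 (18, 52, 60, 41 and 70 peaks). The 4 J segments of the gene table lie between 113428514 and 113429833, and so fall in the constant stretch by these borders.

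Cells had been sorted by an H2B-GFP label, a fluorescent histone that is diluted at each division. Quiescent cells were the H2B-GFP high fraction (n = 3 samples) and proliferating cells the H2B-GFP low fraction (n = 3 samples), both from PEtg mice carrying the same label, so every sample shares both alterations and no mouse without the PEtg transgene was compared here. The sources used here do not give the promoter or the insertion site of the PEtg and H2B-GFP transgenes, nor the age, sex and strain of the mice. If a construct carries heavy-chain sequence, its reads would count in this window, which was not tested. They also leave out whether each sample was a separate mouse, so a p-value reflects only how far these samples scatter, and that scatter may be technical. The depth recovered from the values was 14022138 to 28194694 reads in peaks per quiescent sample, against 8052757 to 48829908 per proliferating sample. Quiescent samples 1, 2 and 3 held 91, 52 and 71 reads at the median heavy-chain peak, against 24, 110 and 181 for proliferating samples 1, 2 and 3, so proliferating sample 1 was the least precise. All 9 B-cell marker genes held peaks within their bodies, as did 5 of 8 T and NK cell genes (10 peaks, none in Cd3e, Cd3g or Ncr1) and 3 of 6 myeloid genes (18 peaks, none in Elane, Ly6g or Mpo).

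The heavy-chain locus is assembled by V(D)J recombination during early B-cell development. The RAG recombinase first joins a D to a J segment, and then a V segment to the joined DJ, deleting the DNA between them. On mouse chromosome 12 the locus is read toward lower coordinates. The V segments, grouped in families by sequence likeness, fill the upper end, the D and J segments follow, and the constant regions Ighm to Igha lie below them. The intronic enhancer Eμ lies between the J segments and Ighm, and a cluster of 3′ enhancers lies beyond Igha. Locus contraction, which brings distant V segments near the D and J segments, depends in mouse pro-B cells on Pax5, Yy1 and CTCF. Because joining removes DNA and no input DNA was measured, fewer copies of a stretch and less open chromatin per copy cannot be told apart.

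The V region is built of repeated copies, and these sequences show how alike the DNA under separate peaks can be. The first pair are the hairpins of Mir7094-1 and Mir7094-2, which lie 36 bp from Ighv1-2 and 12 bp from Ighv1-5 on the minus strand (RefSeq, GRCm38.p6, chr12:114469407-114469466 and chr12:114513635-114513694). They differ at 1 of 60 bases, A5G counted from 1 at the 5′ end and from Mir7094-1 to Mir7094-2, shown in capitals.
Mir7094-1: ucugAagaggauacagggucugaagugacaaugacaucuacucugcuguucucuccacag
Mir7094-2: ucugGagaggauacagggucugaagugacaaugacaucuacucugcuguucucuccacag
The peak over Mir7094-1 and Ighv1-2 (chr12:114468524-114469860) had 654, 656 and 601 in quiescent cells, against 480, 564 and 539 in proliferating cells. These and all values below are the authors' deposited scaled signal unless another scale is named. Its groups did not overlap, and its log2 fold change of 0.27 ± 0.14 (SE, n = 3 each) did not pass (limma adjusted p = 0.255). With limma-voom on recovered reads it passed (adjusted p = 0.0327). The peak over Mir7094-2 and Ighv1-5 (chr12:114512783-114514120) had 876, 915 and 850 in quiescent cells, against 554, 624 and 632 in proliferating cells. It was one of the peaks higher in quiescent cells past the threshold (0.55 ± 0.13, limma adjusted p = 0.0372). The sources used here do not say how reads that fit several copies were placed, so values of near-identical copies are uncertain.

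Of 8 RefSeq promoters in the window, 3 overlapped a peak, and all belonged to non-coding RNA genes scattered between V segments. Each is given on the plus strand from 250 bases before to 50 after the gene start, and capitals mark the E-box CANNTG, the element bound by E2A proteins such as the product of Tcf3. The search covered both strands, on which this palindrome reads alike.
Gm30948 (chr12:115262401-115262700): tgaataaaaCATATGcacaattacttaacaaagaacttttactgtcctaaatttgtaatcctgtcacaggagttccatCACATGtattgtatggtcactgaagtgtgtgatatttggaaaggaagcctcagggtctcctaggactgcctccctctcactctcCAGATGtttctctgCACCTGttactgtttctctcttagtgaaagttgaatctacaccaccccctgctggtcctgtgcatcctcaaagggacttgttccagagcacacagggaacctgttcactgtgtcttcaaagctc
Gm30996 (chr12:115407364-115407663): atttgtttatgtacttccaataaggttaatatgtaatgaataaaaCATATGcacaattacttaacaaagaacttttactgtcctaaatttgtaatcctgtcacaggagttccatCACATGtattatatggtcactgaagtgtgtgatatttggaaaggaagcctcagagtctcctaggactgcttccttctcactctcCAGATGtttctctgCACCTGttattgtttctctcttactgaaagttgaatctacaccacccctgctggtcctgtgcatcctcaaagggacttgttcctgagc
Gm40900 (chr12:115703580-115703879): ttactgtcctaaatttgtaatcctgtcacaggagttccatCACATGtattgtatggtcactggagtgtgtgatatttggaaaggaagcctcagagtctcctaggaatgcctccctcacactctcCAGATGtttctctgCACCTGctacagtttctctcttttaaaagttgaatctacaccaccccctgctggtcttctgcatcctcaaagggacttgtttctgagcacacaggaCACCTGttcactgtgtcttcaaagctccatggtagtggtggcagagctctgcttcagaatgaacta
Gm30948 and Gm30996 shared 257 of 265 aligned positions (97.0%), Gm30948 and Gm40900 247 of 262 (94.3%), and Gm30996 and Gm40900 211 of 227 (93.0%). Each held 4 E-boxes. Among all 32851 promoters of 300 bases in the table, 72.3% held at least 1 and 6.49% at least 4. The octamer ATGCAAAT, the classical element of V-segment promoters, was in none of the 3 on either strand, against 1.74% of all promoters.

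The peaks over these copies had the following values. The peak at Gm30948 (chr12:115262040-115263093) had 678, 691 and 603 in quiescent cells, against 668, 756 and 679 in proliferating cells (log2 fold change -0.09 ± 0.13). At Gm30996 (chr12:115407364-115407715) the values were 55.6, 24.4 and 57.9 in quiescent cells, against 74.7, 67.4 and 46.8 in proliferating cells (-0.51 ± 0.38). Gm40900 (chr12:115703596-115703921) had 52.2, 43.3 and 33.9 in quiescent cells, against 30.0, 15.9 and 22.7 in proliferating cells (0.91 ± 0.36). The groups overlapped at the peaks of Gm30948 and Gm30996 and did not overlap at Gm40900, and no difference passed (limma adjusted p = 0.719, 0.446 and 0.158 for Gm30948, Gm30996 and Gm40900).

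Across the locus, signal was higher in quiescent cells at 194 of 271 peaks, and the median log2 fold change of quiescent over proliferating cells was 0.33, against -0.009 over all 87411 tested peaks. The summed signal of the 271 peaks was 85265, 86361 and 86889 in quiescent samples 1, 2 and 3, against 70491, 79073 and 75208 in proliferating samples 1, 2 and 3. Every quiescent sum lay above every proliferating sum, and the ratio of the mean sums, 86172 ± 829 to 74924 ± 4298 (SD, n = 3 each), was 1.15. Proliferating sample 1, the shallowest library, lay lowest, with a median deviation of -0.27 from the 6-sample mean on the log2 scale, against -0.03 and -0.07 in proliferating samples 2 and 3. Without it the locus median was 0.26.

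Single peaks rarely passed. Of 255 tested peaks, 16 rose (6.27%, against 4.01% of all tested peaks) and 4 fell (1.57%, against 2.72%) in quiescent cells, at a Benjamini-Hochberg adjusted p under 0.05 over all tested peaks in limma. The other 16 peaks were too weak to be tested. With the replicate number as a block, 45 rose and 8 fell (17.6% and 3.14%, against 10.2% and 8.14% of all tested peaks). The groups did not overlap, with quiescent cells higher, at 81 of the 255 tested peaks (31.8%, against 15.4% of all tested peaks), and with quiescent cells lower at 14 (5.49%, against 14.9%). Leaving out quiescent sample 2 or 3, or proliferating sample 2 or 3, left few calls in limma, here and over all peaks. Without proliferating sample 2 or 3, 2 heavy-chain peaks rose and none fell each time, while over all tested peaks 556 rose and 234 fell without sample 2, and 753 rose and 407 fell without sample 3. Without quiescent sample 2 no heavy-chain peak passed, and over all tested peaks 79 rose and 82 fell. Without quiescent sample 3 no peak passed, here or over all tested peaks, 16512 of which had an unadjusted p under 0.05. In those last 2 fits 57 and 50 of the 255 tested heavy-chain peaks had an unadjusted p under 0.05. Over all 87411 tested peaks 16739 and 16512 did. With all samples the counts were 71 at the heavy chain and 21185 over all tested peaks. The heavy-chain median was 0.29 in each of those 2 fits. With limma-voom on recovered reads of all 6 samples, 47 rose and 4 fell (against 9.98% and 3.99% of all tested peaks). On recovered reads scaled to their totals 13 rose and 5 fell (against 3.35% and 6.11% of all tested peaks), and with median-of-ratios factors 37 rose and 3 fell (against 6.88% and 2.87%).

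**Figure D1:**
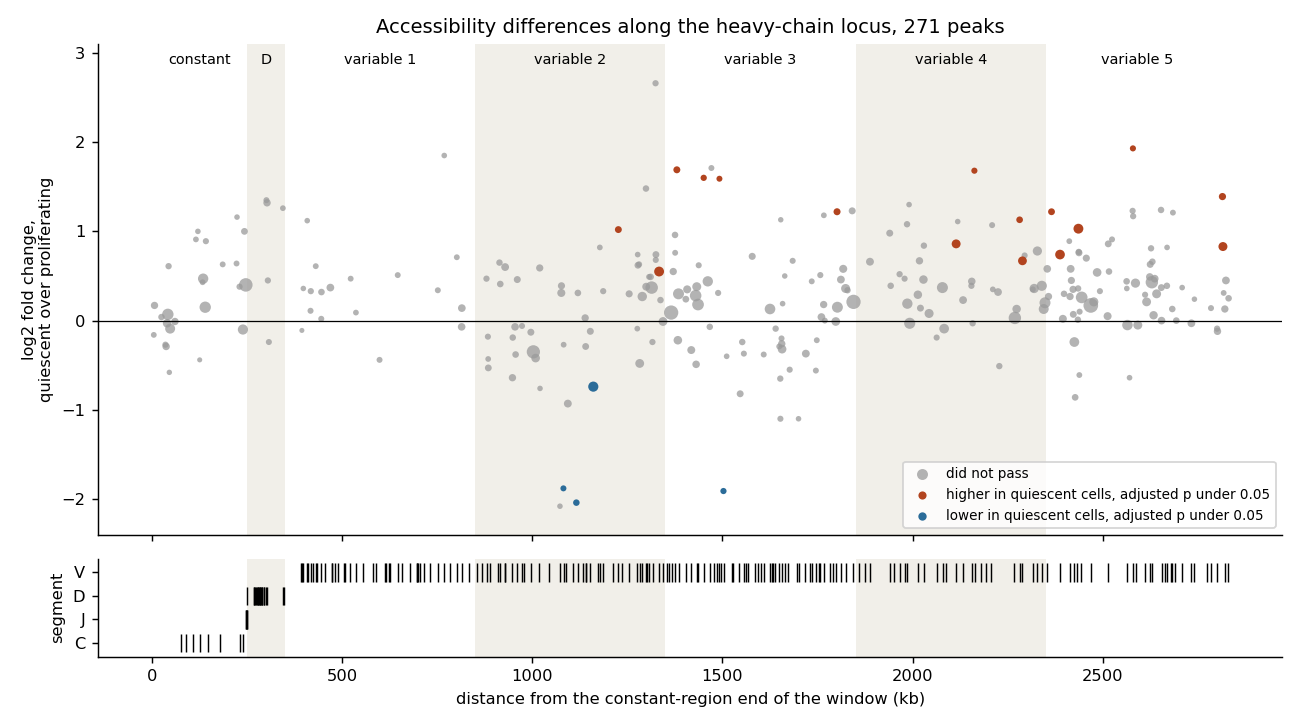
Log2 fold change of signal, quiescent over proliferating cells, at each of the 271 heavy-chain peaks (vertical axis) by distance in kb from the constant-region end of the window (horizontal axis), with larger points for stronger peaks and the gene table's V, D, J and C segments as ticks below. The 16 red points rose and the 4 blue points fell past an adjusted p of 0.05, grey points did not pass or were too weak to be tested, all 4 falls lie in variable 2 and variable 3, and no point in the constant, D and variable 1 stretches passed.

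The stretches differed in how their signal was divided. Variable 4 and variable 5, farthest from the D segments, had 36 of 41 and 59 of 70 peaks above 0, with median log2 fold changes of 0.39 and 0.36. Variable 2 and variable 3 were mixed, with 28 of 52 and 36 of 60 peaks above 0 and medians of 0.25 and 0.19. In the constant stretch 16 of 25 peaks lay above 0 (median 0.17), in variable 1 15 of 18 (median 0.33), and among the D segments 4 of 5 (median 1.26). Over all tested peaks 49.3% lay above 0. On recovered reads scaled to their totals, where the median of all tested peaks was -0.21, the medians of variable 1, 2 and 3 were -0.03, -0.04 and -0.02, and that of the constant stretch was 0.00. No test of a difference between stretches was made.

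Summed over its peaks, variable 5 had 21407, 22706 and 22772 in quiescent samples 1, 2 and 3, against 15276, 20031 and 19164 in proliferating samples 1, 2 and 3, a ratio of mean sums of 1.23. Variable 4 had 14791, 16341 and 16793 in the quiescent samples, against 11919, 14589 and 13492 in the proliferating samples (ratio 1.20). Variable 3 had 23746, 23249 and 22716 in the quiescent samples, against 20513, 21004 and 20071 in the proliferating samples (ratio 1.13). In all 3 of these stretches every quiescent sum exceeded every proliferating sum. Variable 2 had 14052, 11841 and 11032 in the quiescent samples, against 12894, 12503 and 11594 in the proliferating samples, and its ratio was 0.998, with groups that overlapped. In variable 1, a poorly open stretch, the sums were 1233, 1004 and 1059 in the quiescent samples, against 1108, 840 and 846 in the proliferating samples (ratio 1.18), and the groups overlapped. The constant stretch had 9635, 10912 and 12118 in the quiescent samples, against 8545, 9935 and 9840 in the proliferating samples (ratio 1.15), also with overlap. The D stretch summed to 401, 308 and 399 in the quiescent samples, against 234, 170 and 203 in the proliferating samples (ratio 1.82), with no overlap.

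**Figure D2:**
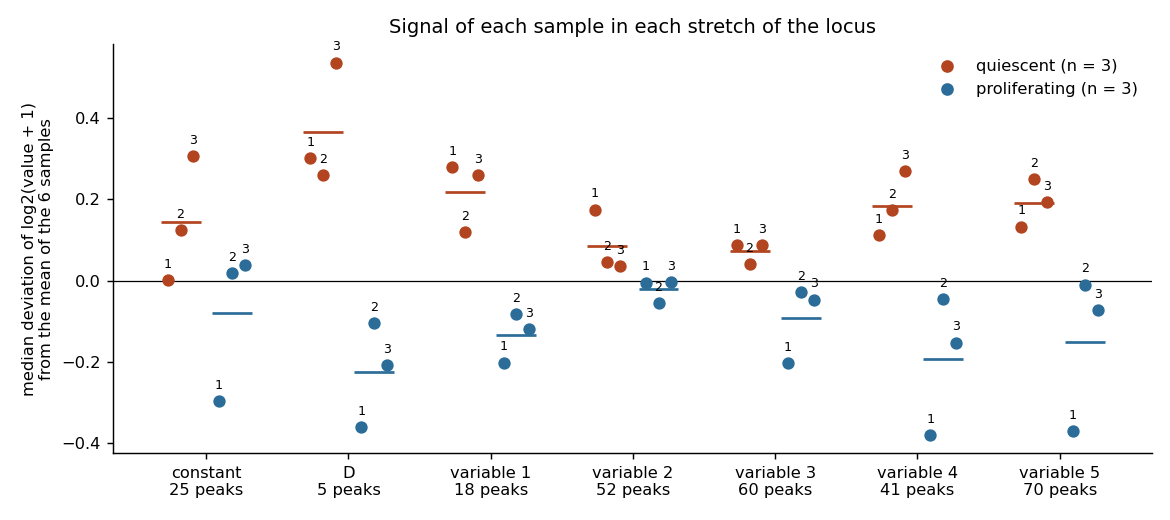
Median over the peaks of a stretch of each sample's log2(value + 1) minus the mean of the 6 samples (vertical axis), for quiescent samples (red, left) and proliferating samples (blue, right), with the replicate number above each point and a line at the group mean. Proliferating sample 1 lies lowest in every stretch except variable 2, at -0.38 in variable 4 and -0.37 in variable 5, and the gap between the groups is smallest in variable 2.

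Open chromatin was unevenly spread. Variable 1, next to the D segments, held 3.6 peaks per 100 kb covering 1.31% of its length, while variable 5, at the far end, held 14.6 per 100 kb covering 10.77%. The constant stretch was the most covered, at 12.67%, and the D stretch held 5.0 per 100 kb, covering 3.92%. The widest gap between neighbouring peaks was 104996 bp, from 113826741 to 113931737 in variable 1, against a median gap of 4809 bp. Variable 1 held 41 V segments, about as many as variable 2 with 40.

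In the constant stretch no peak passed, in either direction. Over all 87411 tested peaks 21185 had an unadjusted p under 0.05, and in this stretch 5 of 21 tested peaks did. Its median of 0.17 was 0.30 without proliferating sample 3 and 0.27 without quiescent sample 1. The strongest was the J peak (chr12:113425296-113429228), which begins in the intron between Ighm and the J segments, where Eμ is known to lie, and covers Ighj4 and Ighj3. It had 3299, 3887 and 4023 in quiescent cells, against 2344, 3185 and 3029 in proliferating cells. All quiescent values were above all proliferating ones (0.40 ± 0.14), and the difference passed with the replicate block (limma adjusted p = 0.00830) but not without it (adjusted p = 0.115). The J peak also passed with limma-voom on recovered reads (adjusted p = 0.00301). A weak neighbour between it and Ighm (chr12:113423116-113424318), chosen after its values were seen, behaved alike, at 122, 106 and 113 in quiescent cells, against 31.9, 67.6 and 82.0 in proliferating cells (adjusted p = 0.115, and 0.0361 with the block). At the wide peak over Ighm, which encodes the constant region of IgM (chr12:113416351-113423073), values were 626, 846 and 1076 in quiescent cells, against 759, 994 and 932 in proliferating cells, and the groups overlapped (-0.10 ± 0.20).

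Beyond Igha, on the side of the 3′ enhancers, no peak separated the groups by more than a narrow margin among the 4 strongest. The strongest (chr12:113221072-113223712), 32492 bp from Igha, had 1462, 1646 and 1504 in quiescent cells, against 1221, 1623 and 1593 in proliferating cells (0.07 ± 0.14, adjusted p = 0.814). The next (chr12:113227465-113229446) had 730, 666 and 903 in quiescent cells, against 734, 880 and 827 in proliferating cells (-0.09 ± 0.15). The groups overlapped at both, and at another (chr12:113219860-113221062, log2 fold change -0.03). The weakest of the 4 (chr12:113217328-113218476) had 130, 142 and 139 in quiescent cells, against 142, 171 and 194 in proliferating cells (-0.29 ± 0.20, adjusted p = 0.401), just apart. A pair of strong peaks between Ighg2b and Ighg1, constant regions of IgG subclasses, also did not pass. With limma-voom on recovered reads both did (adjusted p = 0.0152 and 0.0277, in the order below). One (chr12:113314216-113316168) had 956, 995 and 1322 in quiescent cells, against 1004, 665 and 706 in proliferating cells (0.47 ± 0.19, adjusted p = 0.173). The other (chr12:113319409-113321830) had 1298, 1544 and 1800 in quiescent cells, against 1467, 1289 and 1389 in proliferating cells (0.15 ± 0.14). At both, proliferating sample 1 lay within the range of the quiescent samples.

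The D stretch held only weak peaks, and none of the 5 passed. Its strongest (chr12:113482095-113484053) covers Ighd1-1, one of the 20 D segments there, and had 253, 156 and 222 in quiescent cells, against 153, 47.9 and 75.5 in proliferating cells. The groups were apart by a narrow margin, since proliferating sample 1 nearly reached quiescent sample 2 (1.32 ± 0.39, adjusted p = 0.0779, and 0.00302 with the block). With limma-voom on recovered reads this peak also passed (adjusted p = 0.00978). Its neighbour 366 bp from the segment (chr12:113481128-113481804) had 28.0, 45.0 and 55.2 in quiescent cells, against 4.64, 26.5 and 28.0 in proliferating cells (1.35 ± 0.63, adjusted p = 0.228, and 0.0445 with the block). Near Ighd3-1, at the V-ward end of the D cluster (chr12:113524600-113524935), values were 31.0, 30.1 and 27.6 in quiescent cells, against 5.67, 17.1 and 16.1 in proliferating cells (1.26 ± 0.48, adjusted p = 0.147). At these last 2 peaks proliferating sample 1 was far below the other samples, and without it the median of the 5 peaks was 0.58 in place of 1.26. The other 2 peaks, 2738 and 5555 bp from Ighd1-1, had log2 fold changes of 0.45 and -0.24.

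Variable 1 held no peak past the threshold (1 rise with the block, or 6.67% of its tested peaks, against 10.2% of all), and its strongest peaks were weak. The peak 3472 bp from Ighv2-4 (chr12:113649247-113649819) had 206, 213 and 255 in quiescent cells, against 231, 146 and 153 in proliferating cells (0.37 ± 0.22). A pair of peaks over Ighv14-2 (chr12:113994214-113994782 and chr12:113994800-113995255) had log2 fold changes of -0.07 ± 0.24 and 0.14 ± 0.27. The groups overlapped at all 3. Without quiescent sample 1 the median of the stretch was 0.04, and without proliferating sample 3 it was 0.21, against 0.33 with all samples.

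Variable 2 held 3 of the 4 falls of the locus and 2 rises, and with the block 6 falls and 5 rises. Without quiescent sample 2 or proliferating sample 3 its median was 0.12 or 0.13 in place of 0.25. The strongest fall (chr12:114339750-114341280), 6664 bp from Ighv8-1, had 738, 646 and 542 in quiescent cells, against 1001, 1248 and 970 in proliferating cells (-0.74 ± 0.16, limma adjusted p = 0.0308). On recovered reads it did not pass, at -0.44 with median-of-ratios factors (adjusted p = 0.165) and -0.42 with limma-voom (adjusted p = 0.160). The other falls were at weak and narrow peaks between V segments. The peak 521 bp from Ighv3-5 (chr12:114261863-114262131) had 15.2, 15.2 and 11.2 in quiescent cells, against 44.0, 60.4 and 57.4 in proliferating cells (-1.88 ± 0.33, adjusted p = 0.0169). The peak 3822 bp from Ighv9-4 (chr12:114295871-114296139) had 34.6, 9.61 and 39.2 in quiescent cells, against 129, 103 and 77.1 in proliferating cells (-2.04 ± 0.49, adjusted p = 0.0427). At each of the 3 the groups were apart.

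The rises of variable 2 lay over V segments, at Ighv1-5, given above, and at Ighv6-4 (chr12:114406173-114406581), with 137, 132 and 121 in quiescent cells, against 61.2, 63.2 and 67.2 in proliferating cells (1.02 ± 0.20, adjusted p = 0.0242). The stretch's strongest peaks lay between segments and moved oppositely without passing. The peak 5447 bp from Ighv14-4 (chr12:114182314-114183683) had 3442, 2519 and 2034 in quiescent cells, against 3452, 3401 and 3112 in proliferating cells (-0.35 ± 0.17, adjusted p = 0.250, and 0.0499 with the block). The peak 1660 bp from Ighv10-2 (chr12:114493465-114494343) had 2890, 2458 and 2354 in quiescent cells, against 2377, 1807 and 1806 in proliferating cells (0.37 ± 0.14, adjusted p = 0.145, and 0.0155 with the block). At both, quiescent sample 1 was the highest of its group and the groups overlapped. With limma-voom on recovered reads the peak near Ighv10-2 passed (adjusted p = 0.0125) and the peak near Ighv14-4 did not (adjusted p = 0.714).

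Variable 3 held 4 rises and 1 fall, and with the block 8 rises and 1 fall. Rises made up 7.14% of its tested peaks (14.3% with the block), against 4.01% of all tested peaks (10.2% with the block). The fall made up 1.79% in both fits, against 2.72% of all tested peaks (8.14% with the block). The peak 3849 bp from Ighv1-8 (chr12:114559751-114560447) had 190, 150 and 131 in quiescent cells, against 45.3, 51.4 and 45.9 in proliferating cells (1.69 ± 0.23, limma adjusted p = 0.00880), the smallest adjusted p of the locus, and it passed in 4 of the 6 fits that left out a sample. At Ighv1-13 (chr12:114630488-114630840) values were 74.4, 78.0 and 68.1 in quiescent cells, against 22.6, 24.4 and 23.8 in proliferating cells (1.60 ± 0.26, adjusted p = 0.0134). At Ighv1-17-1 (chr12:114671885-114672134) they were 38.8, 59.2 and 49.1 in quiescent cells, against 13.7, 13.0 and 20.3 in proliferating cells (1.59 ± 0.35, adjusted p = 0.0322). These rises were at weak peaks with tight groups. The fall, over Ighv1-18 (chr12:114682413-114682744), had 13.1, 11.5 and 34.6 in quiescent cells, against 71.1, 55.1 and 81.7 in proliferating cells (-1.91 ± 0.43, adjusted p = 0.0353). It passed in none of the 6 fits that left out a sample. The remaining rise, 2783 bp from Ighv1-46 (chr12:114980769-114981387) and chosen after its values were seen, had 101, 181 and 179 in quiescent cells, against 69.4, 57.6 and 63.6 in proliferating cells (1.22 ± 0.27, adjusted p = 0.0338).

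The strongest peaks of variable 3 did not pass. With limma-voom on recovered reads they did (adjusted p = 0.0376, 0.00381 and 0.0172, in the order below). The peak 1480 bp from Ighv10-4 (chr12:114544540-114545778) had 4543, 4306 and 3987 in quiescent cells, against 4959, 3739 and 3482 in proliferating cells (0.09 ± 0.13). The peak over Ighv8-4 (chr12:115023250-115025516) had 3841, 4726 and 4889 in quiescent cells, against 3674, 3894 and 4022 in proliferating cells (0.21 ± 0.11, adjusted p = 0.283). The groups overlapped at both. At Ighv1-12 (chr12:114614872-114616662) they were narrowly apart, at 1866, 1699 and 1806 in quiescent cells, against 1480, 1675 and 1603 in proliferating cells (0.18 ± 0.11, adjusted p = 0.350).

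In variable 4 all 4 called peaks rose, and with the block 11 of 39 tested peaks rose and none fell. Rises made up 10.3% of its tested peaks (28.2% with the block), against 4.01% of all tested peaks (10.2% with the block). Of all tested peaks 2.72% fell (8.14% with the block). At Ighv8-8 (chr12:115293549-115294624) values were 628, 519 and 551 in quiescent cells, against 365, 242 and 340 in proliferating cells (0.86 ± 0.19, limma adjusted p = 0.0316). At Ighv1-62-3 (chr12:115460677-115461116) they were 93.0, 95.5 and 122 in quiescent cells, against 34.3, 58.7 and 49.7 in proliferating cells (1.13 ± 0.27, adjusted p = 0.0436). The peak 2366 bp from Ighv1-60 (chr12:115341907-115342171) had 68.7, 84.4 and 39.8 in quiescent cells, against 14.6, 19.2 and 22.5 in proliferating cells (1.68 ± 0.37, adjusted p = 0.0318). The groups were apart at each of these peaks. Ighv8-9 (chr12:115467793-115468929), chosen after its values were seen, had 517, 462 and 539 in quiescent cells, against 340, 319 and 291 in proliferating cells (0.67 ± 0.15, adjusted p = 0.0328). The strongest peaks of the stretch overlapped between the groups, with log2 fold changes of 0.03 (chr12:115447924-115448870), -0.03 (chr12:115171352-115172751) and, at Ighv8-7, 0.37 ± 0.28 (chr12:115257380-115258629, adjusted p = 0.459, and 0.0264 with the block).

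Variable 5, at the distal end of the V region, held 6 rises and no fall, and with the block 16 rises and 1 fall among 69 tested peaks. Rises made up 8.70% of its tested peaks (23.2% with the block), against 4.01% of all tested peaks (10.2% with the block). The fall with the block made up 1.45%, against 8.14% of all tested peaks. Its largest rise lay 161 bp from Ighv1-72 (chr12:115758438-115758884), with 45.9, 78.1 and 59.9 in quiescent cells, against 7.23, 19.8 and 22.8 in proliferating cells (1.93 ± 0.46, limma adjusted p = 0.0403). Proliferating sample 1 held only 3 recovered reads at this peak. On recovered reads scaled to their totals its log2 fold change was 1.52. The peak 5825 bp from Ighv1-85 (chr12:115993686-115994203) had 133, 222 and 208 in quiescent cells, against 64.2, 86.9 and 59.6 in proliferating cells (1.39 ± 0.27, adjusted p = 0.0210). The peak 12124 bp from Ighv1-65 (chr12:115544471-115545000) had 111, 120 and 153 in quiescent cells, against 47.8, 53.4 and 61.2 in proliferating cells (1.22 ± 0.23, adjusted p = 0.0214). None of the 3 lay on a V segment, and the groups were apart at each.

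The other 3 rises of variable 5, named after their values were seen, were at stronger peaks. The peak 3263 bp from Ighv1-68 (chr12:115614896-115615999) had 867, 1023 and 1108 in quiescent cells, against 416, 558 and 497 in proliferating cells (1.03 ± 0.16, limma adjusted p = 0.0119), and passed in 4 of the 6 fits that left out a sample. Ighv8-11 (chr12:115566462-115567706) had 898, 855 and 787 in quiescent cells, against 464, 526 and 531 in proliferating cells (0.74 ± 0.13, adjusted p = 0.0175). The peak 4551 bp from Ighv1-85 (chr12:115994985-115995477) had 536, 657 and 580 in quiescent cells, against 381, 342 and 277 in proliferating cells (0.83 ± 0.17, adjusted p = 0.0255). It neighbours the weaker rise near Ighv1-85 given above. The strongest peak of the whole locus, over Ighv8-12 (chr12:115646996-115648894), had 5156, 4837 and 4926 in quiescent cells, against 3888, 4582 and 4829 in proliferating cells, groups that were barely apart (0.17 ± 0.10, adjusted p = 0.336). Ighv8-14 (chr12:115807464-115809365) had 2492, 2637 and 2473 in quiescent cells, against 1404, 2310 and 2037 in proliferating cells (0.43 ± 0.17, adjusted p = 0.160, and 0.0299 with the block). At Ighv1-69 (chr12:115621973-115626053) the log2 fold change was 0.26 ± 0.17, with overlap. With limma-voom on recovered reads, Ighv8-12, Ighv8-14 and Ighv1-69 passed (adjusted p = 0.00594, 0.00888 and 0.0238, in that order).

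**Figure D3:**
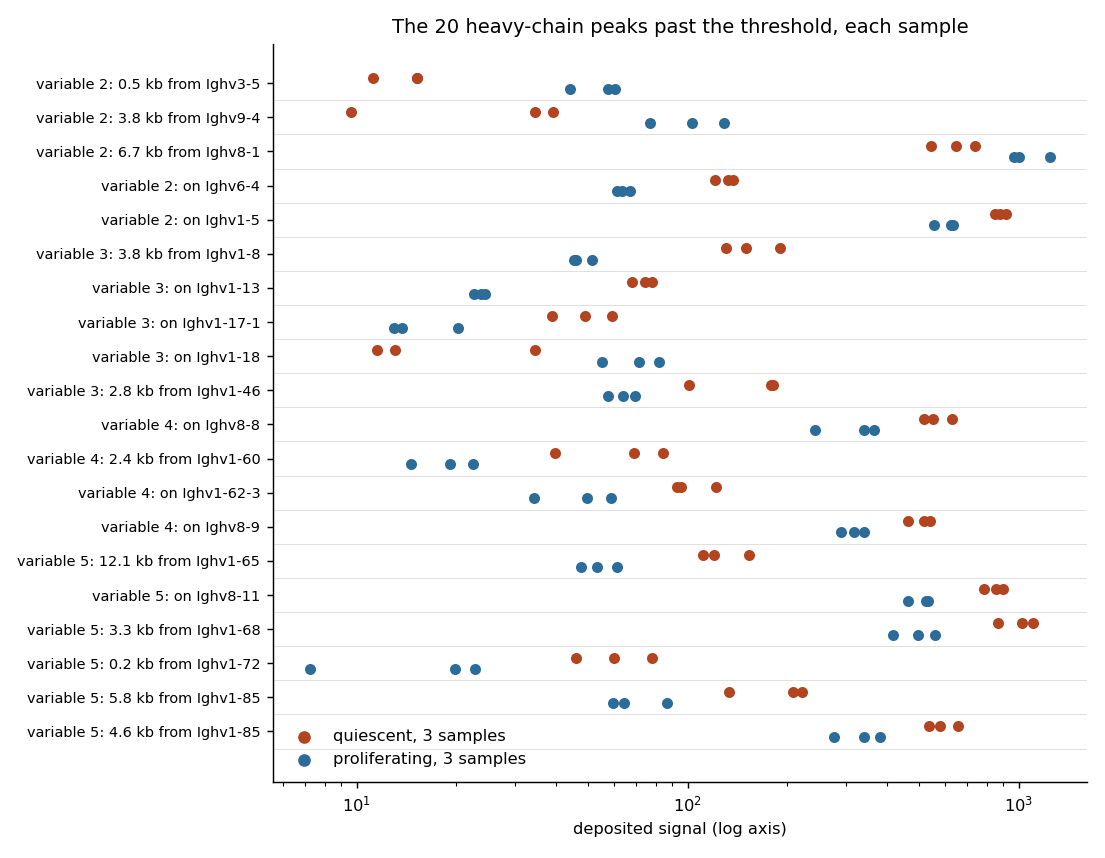
Deposited signal of each quiescent sample (red, upper) and each proliferating sample (blue, lower) on a log axis at the 20 heavy-chain peaks past the threshold, listed from the D-ward to the distal end of the V region. The groups are apart at every peak shown, and in quiescent cells they span the peak near Ighv3-5, at 11.2 to 15.2, and the peak near Ighv1-68, at 867 to 1108.

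Peaks over V segments were compared by family, a property that the choice of peaks did not use. Of 184 V segments, 95 (51.6%) lay in a peak, and the share was 24.4% in variable 1, 55.0% in variable 2, 49.0% in variable 3, 65.4% in variable 4 and 78.6% in variable 5. Segments annotated as pseudogenes were in a peak in 18 of 63 cases (28.6%), and the others in 77 of 121 (63.6%). Of the Ighv8 family 14 of 16 segments lay in a peak (87.5%), of Ighv1, the largest family, 53 of 92 (57.6%), of Ighv5 5 of 21 (23.8%) and of Ighv2 3 of 11 (27.3%). Ighv5 and Ighv2 are the D-proximal families.

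The Ighv8 peaks had a higher median signal than the pooled peaks of Ighv1 and of the remaining families, with wide ranges. The median over the 14 peaks of the group mean was 724 in quiescent and 498.5 in proliferating cells, against 81.4 in quiescent and 65.8 in proliferating cells over 55 Ighv1 peaks. Over the 30 peaks of other families it was 64.2 in quiescent and 43.3 in proliferating cells. Per kb of peak, the median signal over all samples was 560 for Ighv8 and 135 for Ighv1. Over all samples single Ighv8 peaks averaged 104 to 4703 and single Ighv1 peaks 14.5 to 1694, and the one Ighv15 peak averaged 1253. Of the Ighv8 peaks 3 rose and none fell, 12 lay above 0 and the median log2 fold change was 0.38. The 2 below 0 were the D-ward pair, Ighv8-1 (-0.12 ± 0.23) and Ighv8-2 (-0.48 ± 0.20, limma adjusted p = 0.186, and 0.0299 with the block). With the block 8 rose and 1 fell. The groups were apart, quiescent higher, at 8 of the 14, Ighv8-5, Ighv8-8, Ighv8-9, Ighv8-10, Ighv8-11, Ighv8-12, Ighv8-13 and Ighv8-14, all in variable 4 and variable 5. That share was 15.4% of all tested peaks, 41.0% of those in variable 4 and 36.2% of those in variable 5. In variable 4 it held for 4 of 6 Ighv8 and 6 of 11 Ighv1 peaks. In variable 5 it held for 4 of 4 Ighv8 and 2 of 18 Ighv1 peaks. Ighv1 peaks had 4 rises, 1 fall and a median of 0.27, and with the block 8 rises and 1 fall. These counts are descriptions, and no test between families was made. Of all tested peaks, 4.01% rose and 2.72% fell (10.2% and 8.14% with the block).

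In the variable stretches the 99 peaks over a V segment had 8 rises, 1 fall and a median of 0.30, and with the block 18 rises and 2 falls. The 142 peaks over no V segment had 8 rises, 3 falls and a median of 0.33, and with the block 23 rises and 6 falls. No test between these sets was made. Among them 94 and 135 peaks were tested, and of all tested peaks 4.01% rose and 2.72% fell (10.2% and 8.14% with the block).

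**Figure D4:**
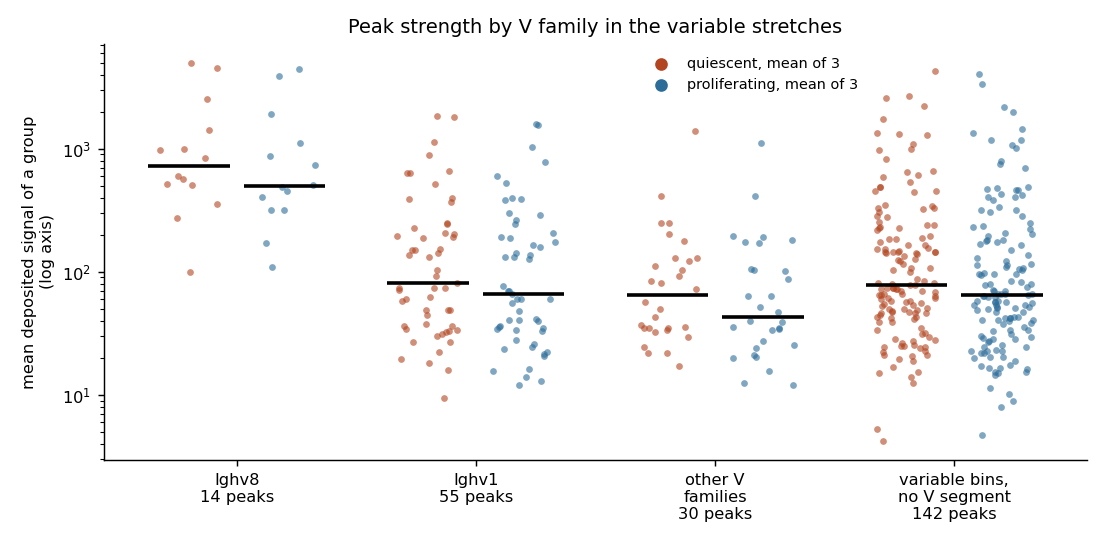
Mean deposited signal of quiescent samples (red, left) and proliferating samples (blue, right) on a log axis at each peak of the variable stretches, by V family and for peaks over no V segment, with a line at the median. Ighv8 peaks lie above the other sets, at medians of 724 in quiescent and 498.5 in proliferating cells.

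Other antigen receptor loci, taken as the span of their segments, were set beside the heavy chain. At the kappa light-chain locus, rearranged after the heavy chain, 6 of 296 tested peaks rose and 35 fell (2.03% and 11.8%, median -0.22), and with the block 19 rose and 71 fell. The lambda locus had no call among 18 peaks (median 0.43, and with the block 4 rises and 1 fall). At the T-cell receptor beta locus, not normally rearranged in B cells, 8 of 34 peaks rose and none fell (23.5%, median 0.42, and with the block 12 rises and 2 falls), with sums of 7093, 7842 and 8846 in quiescent samples and 5576, 4742 and 5738 in proliferating samples. The T-cell receptor alpha and delta locus had no rise and 1 fall among 19 tested peaks (median 0.17), and with the block 5 rises and 1 fall. The matching shares of all tested peaks were 4.01% rises and 2.72% falls, and 10.2% and 8.14% with the block. No test between loci was made.

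Genes that act on the locus were read from a list of 19. Of the 274 tested peaks in their bodies, 9 rose and 2 fell (3.28% and 0.730%, against 4.01% and 2.72% of all tested peaks), with a median of 0.24. Without the block, rises were thus no more frequent than over all tested peaks. With the block 32 of the 274 rose and 5 fell, against 10.2% and 8.14% of all tested peaks. The share of rises was then slightly above that of all tested peaks. The peak in Rag1, a subunit of the recombinase, had 437, 329 and 464 in quiescent cells, against 72.7, 159 and 143 in proliferating cells (1.77 ± 0.30, limma adjusted p = 0.0145). Rises were also found in Dntt, which encodes the polymerase that adds bases at the joins (1.24 ± 0.28, adjusted p = 0.0371), and in Tcf3, which encodes E2A (1.91 ± 0.45, adjusted p = 0.0386). Ebf1, a regulator of B-lineage identity, held 2 rises (1.63 ± 0.20 and 1.26 ± 0.32), and Pou2f1, Pou2af1 and Spi1, encoding Oct-1, its coactivator and PU.1, held 1 each. A Pax5 peak fell to 870, 778 and 921 in quiescent cells, against 1359, 1184 and 1218 in proliferating cells (-0.55 ± 0.12, adjusted p = 0.0354). Ikzf1, encoding Ikaros, held 1 rise (0.93 ± 0.22) and 1 fall (-0.96 ± 0.22).

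Genes marking other kinds of cell were read in the same table. Summed over the B-cell marker peaks, signal was 46178 to 48804 in quiescent samples and 42927 to 48615 in proliferating samples, with 2 rises and 2 falls among 157 tested peaks, and 11 and 4 with the block. Peaks of T and NK genes (5 of 8 genes with a peak) summed to 2549 to 3211 in quiescent and 2477 to 2614 in proliferating samples, with no call, and 1 rise and 1 fall with the block. Myeloid genes (3 of 6) summed to 7092 to 9064 in quiescent and 5947 to 8474 in proliferating samples, with 2 rises among 17 tested peaks, both in Csf1r, and 5 rises with the block. Erythroid genes (1 of 4) had no call, and plasma cell genes (3 of 4) summed to 2930 to 3077 in quiescent and 2456 to 2835 in proliferating samples, with no call, and 2 rises and 1 fall with the block. Rises and falls each made up 1.27% of tested B-cell marker peaks, and rises 11.8% of tested myeloid peaks. Of all tested peaks 4.01% rose and 2.72% fell (10.2% and 8.14% with the block). The part of other cells in the heavy-chain values was not tested.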

How the data were processed

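ATAC-seq had been done on 6 samples, 3 quiescent and 3 proliferating, in a pair of sequencing runs each per the labels' protocols. Bowtie2, SAMtools, MACS2 and the build mm10 are named in the submitters' processing notes. These sources give no versions, settings, transposase offset or rule for reads that fit several places. The authors deposited 1 scaled signal value per sample and peak, for a single list of peaks of 200 to 13023 bp shared by the samples. These were not counts, and signal totals lay between 20904407 and 21518630.

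The size of 1 read in each sample was followed along peak strength, and dividing values of 1 to 1000 reads by it gave whole numbers, to within 0.1, for at least 99.60% of them in each sample. The recovered reads gave depths and served alternatives only. The main test was the intensity-trend form of limma 3.58.1 in R 4.3.3, two-sided, on log2(value + 1), over the 87411 peaks above the lowest 10% by mean, with Benjamini-Hochberg adjustment over all of them. It was also run on simulated data with known changes, drawn with a fixed spread and no replicate structure. That run does not show how the test performs on these samples. The added 1 pulls fold changes of weak peaks toward 0. The value of 1 read also changed between the lowest and highest 10% of peaks by strength. It fell in quiescent samples 1, 2 and 3 (1.0661 to 0.7265, 2.2249 to 1.4823 and 1.4653 to 1.1228). In proliferating samples 1, 2 and 3 it rose (1.3147 to 2.7212, 0.6307 to 0.6799 and 0.3468 to 0.4470). Log2 fold changes of weak peaks therefore lie higher here, relative to those of strong peaks, than on reads. A weak rise can look larger and a weak fall smaller, while a strong rise can look smaller. On reads scaled to their totals, where the median of all tested peaks was -0.21, the fall near Ighv3-5 was -2.32 in place of -1.88. The strongest peak, over Ighv8-12, was then 0.39 in place of 0.17. The D median of 1.26 was 0.59 with limma-voom on recovered reads. Python 3.11.15, numpy 2.4.6, pandas 2.3.3, matplotlib 3.10.9 and biopython 1.88 made the summaries, alignments and figures.

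Segments were taken from RefSeq genes on GRCm38.p6 (the assembly of mm10), a table without strand. Peaks, lists, stretches and naming rules were chosen with earlier results of these data known. In the constant and D stretches the 8 strongest peaks and every call were named, and in each variable stretch the 3 strongest, the 3 largest rises past the threshold and every fall. Deviations from the group means were correlated between same-numbered samples of both groups (0.430, 0.285 and 0.210 over tested peaks for numbers 1, 2 and 3). Quiescent sample 2 with proliferating sample 3 gave 0.220, and quiescent sample 3 with proliferating sample 2 gave 0.146. Sample 1 of either group gave -0.361 to -0.212 with samples 2 and 3 of the other. Deviations cancel within a group, so these negative values follow in sum from the positive value of the number 1 pair. They are not separate evidence of pairing. The value of 0.430 sets number 1 apart, but the data do not settle how samples 2 and 3 pair. That part of the pairing rests on shared numbers in the labels. Alternatives were the replicate block, a pseudocount of 8, no filter, a filter of 25%, 3 fits on recovered reads, leaving out each sample, and placing a peak by its start. A planned count test with TMM factors was not run, because the unit is a signal. A further gene of the list of factors that act on the locus is not reported here, and its peaks are left out of that list's counts.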

Additional observations from a re-analysis of the deposited data

How the results depend on the processing

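Rises numbered 16 and falls 4 as reported above. With the replicate block they numbered 45 and 8, on recovered reads with median-of-ratios factors 37 and 3, with limma-voom on those reads (both added after seeing the data) 47 and 4, and on reads scaled to their totals 13 and 5. Leaving out 1 sample gave 0 to 20 rises and 0 to 5 falls. All 20 calls remained under the block, 13 with reads scaled to totals, and 19 with each of the other fits on reads, where the fall near Ighv8-1 was lost. Of the 20, 12 passed in every fit on all 6 samples, and none changed sign. Scaling to totals moved the median of all tested peaks to -0.21. The locus median was then 0.09, or 0.30 relative to all peaks, and medians were 0.68 for the D stretch, -0.03, -0.04 and -0.02 for variable 1, 2 and 3, 0.26 for variable 4, 0.18 for variable 5 and 0.00 for the constant stretch. Relative to all peaks those of the D stretch and variable 1, 2, 3 and 5 were 0.89, 0.18, 0.17, 0.20 and 0.39. The D median of 1.26 was 0.89 with a pseudocount of 8, 0.91 with median-of-ratios factors and 0.59 with limma-voom. That of variable 1, 0.33, was 0.20 with median-of-ratios factors. Leaving out 1 sample gave 0.58 to 1.26 for the D stretch, 0.04 to 0.40 for variable 1 and 0.12 to 0.29 for variable 2. The cause was not tested.

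Named peaks outside the 20 calls changed sign, among them the peak at 114182314, which passed with the block and without quiescent sample 1 (-0.55, limma adjusted p = 0.0338). With median-of-ratios factors and with limma-voom, log2 fold changes turned to 0.16 and 0.06 (chr12:113219860-113221062), 0.20 and 0.20 (chr12:113227465-113229446), 0.20 and 0.17 (Ighm), 0.03 and 0.14 (chr12:113994214-113994782), 0.06 and 0.13 (chr12:114182314-114183683), and 0.31 and 0.31 (chr12:115171352-115172751, 0.08 with totals). Leaving out 1 sample gave -0.24 to 0.11, -0.22 to 0.00, -0.29 to 0.10, -0.27 to 0.15 and -0.13 to 0.07 for all of these but the peak at 114182314, in the same order. It gave -0.07 to 0.14 for chr12:113221072-113223712, -0.11 to 0.35 for chr12:113994800-113995255, -0.01 to 0.24 for chr12:114544540-114545778 and -0.02 to 0.13 for chr12:115447924-115448870.

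Proliferating sample 1 had a median of 24 reads per heavy-chain peak, the fewest of the 6. A count test with TMM factors was not run.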
